A study of Mus musculus with 195 samples.

Results

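Radial glia are the stem cells of the developing neural tube. They carry lipid-binding proteins and glutamate transporters that adult astrocytes also use, and they secrete growth and matrix proteins into the niche around them. The 10 genes described here are a fixed list of such effectors, chosen with earlier results of these data known. They fall into 4 kinds by role. Ptn (pleiotrophin, a heparin-binding growth factor), Sparc (a collagen-binding matrix protein), Clu (clusterin, a secreted chaperone) and Lgals1 (galectin 1, a lectin) are secreted. Ptprz1 (a receptor tyrosine phosphatase that binds pleiotrophin) is a receptor, Slc1a3 (the glutamate transporter GLAST) and Cd9 (a tetraspanin) sit in the plasma membrane, and Fabp7, Fabp5 (fatty acid binding proteins) and Dbi (the acyl-CoA binding protein) bind lipids in the cytoplasm. All 10 are in the table of 19736 genes, and 8 had at least 20 molecules over the cells compared, while Clu had 7 and Fabp5 had 2.

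The levels come from BATSeq. In it an oligo-dT primer with a cell barcode and a unique molecular identifier marks the 3′ end of each captured transcript. Each captured transcript is thus counted as 1 molecule, and whether capture depends on transcript length was not tested. All cells stem from 46C, a mouse embryonic stem cell line with a Sox1-GFP reporter derived from E14tg2a. ESC-2i cells were grown with PD0325901 at 1 µM, CHIR99021 at 3 µM and LIF at 10 ng/ml, and ESC-FCS cells with 10% fetal serum and LIF at 10 ng/ml. NSC are neural progenitors derived from the same line in culture, in N2 and B27 medium, with EGF and bFGF per the methods, and they are therefore a cultured model and not radial glia of an embryo. Cells in G1 were sorted for DNA content and small size, 48 per population in 2 library batches. Of these, 41 NSC, 33 ESC-2i and 33 ESC-FCS cells are in the table of genes. Further libraries were 48 ESC-FCS control cells (42 with at least 1000 molecules on genes), 1 ESC-FCS pool and 2 ESC-2i pools of 48 cells each.

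The cells used held 1234 to 9037 molecules on genes in NSC (median 3282), 5342 to 21049 in ESC-2i (median 10864) and 1079 to 14819 in ESC-FCS (median 6375). No label names separate cultures, so each population is 1 sample, no test between populations was made, and intervals cover counting error only. The same 24 cell barcodes were used in all 6 library batches, and the 2 ESC-2i pools carry the batch barcodes of the 2 NSC batches. The neural label was checked against markers. In NSC, Nes had 47 molecules, Vim 130, Sox2 17 and Sox9 10, while Pax6 had 0. Olig1 (93 molecules) and Olig2 (74), which mark the oligodendrocyte lineage and also appear in cultured neural stem cells, were detected as well. Nanog and Tdgf1 had 0 molecules in NSC, and Esrrb had 1.

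NSC held more of most of these genes than either embryonic population. Summed over the 10 genes, the pooled level was 72.8 molecules per 10000 molecules on genes in NSC, 9.96 in ESC-2i and 7.32 in ESC-FCS. Over single cells the sum ran from 12.5 to 213 in NSC (median 64.1), up to 15.0 in ESC-2i (median 10.5) and up to 13.8 in ESC-FCS (median 7.59). The ranges overlapped at the lower end of NSC. Of the 8 genes with at least 20 molecules, 5 were at least 4-fold higher in NSC than in both embryonic populations (Fabp7, Ptn, Ptprz1, Slc1a3 and Dbi), and 0 were at least 4-fold lower. Of all 6063 genes with as many molecules, 3.93% were that much higher and 5.72% that much lower. Fabp7, Ptn, Ptprz1 and Slc1a3 reach 20 molecules only through NSC, the population where they are high, while Clu and Fabp5 do not reach it. The list was also chosen with earlier results of these data known. Counts and medians over these 8 genes, also those by batch, therefore describe the list and do not test it. The median log2 difference between NSC and ESC-2i was 3.78 over the 8 genes and -0.06 over all 6063, and between NSC and ESC-FCS it was 3.00 and -0.01.

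Both NSC batches lay above all 4 embryonic batches for 7 of the 8 genes, against 18.7% of all genes, the exception being Cd9. On a scale of ERCC spike-in molecules every log2 difference of NSC from ESC-2i shifts by -0.30 and from ESC-FCS by -1.34, since NSC cells held 9.53 molecules on genes per ERCC molecule, ESC-2i cells 11.7 and ESC-FCS cells 24.2. On that scale 3 genes remained at least 4-fold higher (Fabp7, Ptn and Ptprz1), with 1.72% of all genes, and no gene of the 8 changed direction against either population.

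**Figure D1:**
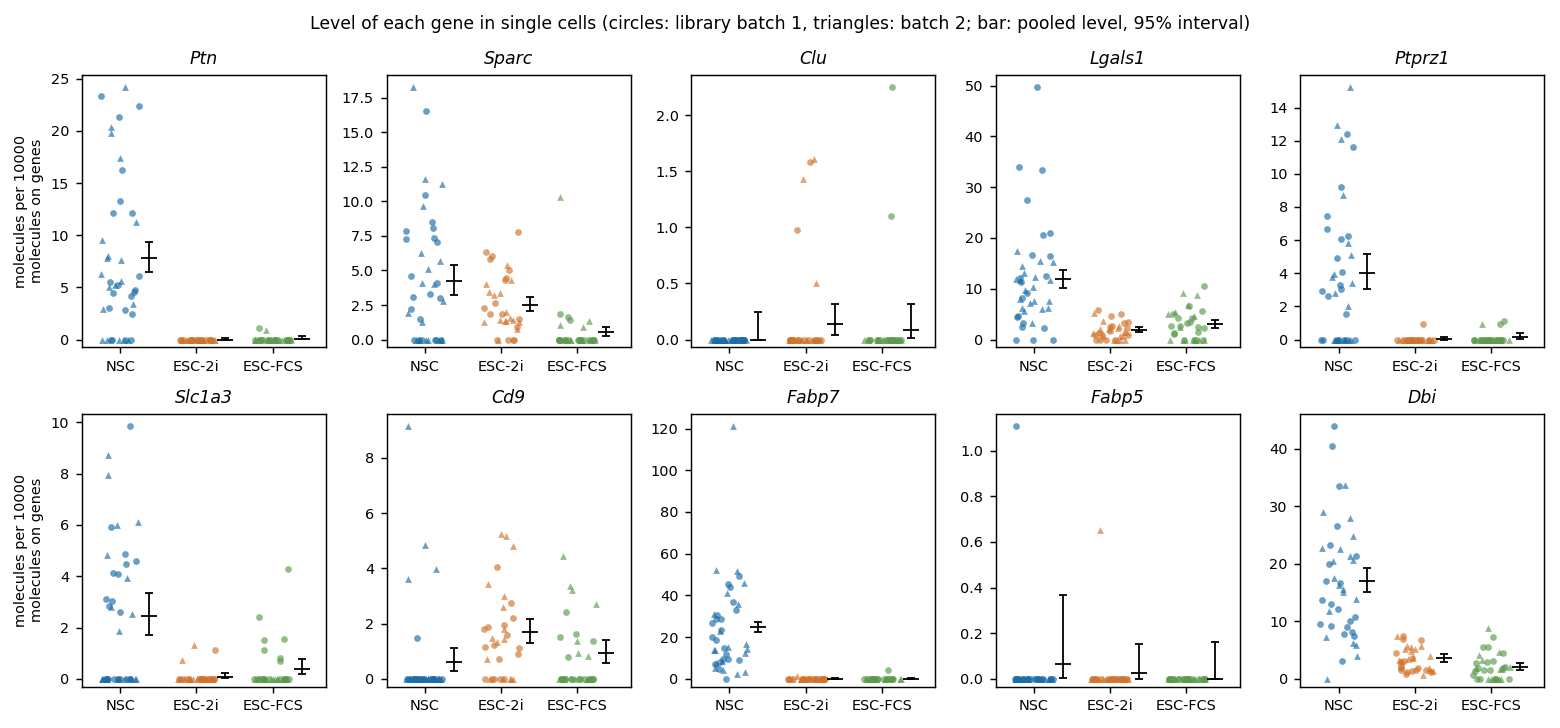
Level of each of the 10 genes in single cells, in molecules per 10000 molecules on genes (vertical axis, a scale of its own per gene), for 41 NSC, 33 ESC-2i and 33 ESC-FCS cells. Points are cells (circles for batch 1, triangles for batch 2), and the black bar is the pooled level with its 95% Poisson interval. Fabp7 reaches 121 in 1 NSC cell and has 1 molecule in each embryonic population, Cd9 is lowest in NSC, and Clu and Fabp5 are near 0 in all 3 populations.

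Fabp7 binds long-chain fatty acids and is the brain member of its family, a standard marker of radial glia. It had 376 molecules in NSC, 24.8 per 10000 (95% interval 22.3 to 27.4; 24.2 and 25.4 in the batches), and was the 39th gene by molecules of 12484 detected there. Single NSC cells held 0 to 50 molecules (median 6), and 40 of 41 cells held at least 1 (97.6%, exact interval 87.1% to 99.9%). In ESC-2i and in ESC-FCS 1 cell of 33 held 1 molecule. A molecule of Fabp7 was therefore detected in nearly every NSC cell and in nearly no embryonic cell, although embryonic cells held more molecules on genes. The NSC level was 912-fold that of ESC-2i (interval 163 to 36115) and 561-fold that of ESC-FCS (100 to 22224), the upper bounds being wide because they rest on 1 molecule. With each cell thinned to 1000 molecules, a molecule was expected in 79.8% of NSC cells, 0.435% of ESC-2i cells and 1.30% of ESC-FCS cells.

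Nearly all of these molecules ended at the annotated end of the gene, on chromosome 10 (plus strand, 57784881 to 57788450 in GRCm38). The most used site, at position 57788449 in the 3′ UTR, took 349 of 376 NSC molecules (92.8%, 89.7% to 95.2%). A second site 30 nt upstream took 22 (5.85%, 3.70% to 8.72%), in 17 of the 40 cells with Fabp7 and with 10 and 12 molecules in the NSC batches. Both lie in the last exon. The 30 bases that end at each site are shown because the canonical polyadenylation hexamer, in capitals, precedes the first and is not in the window of the second. Both are read from GENCODE M21 transcripts, 5′ to 3′:
Fabp7 most used site, chr10:57788420-57788449, plus strand: caaaccaaattgaAATAAAaaatacacaca
Fabp7 second site, chr10:57788390-57788419, plus strand: gggaatatacttatgactttctttggaatg
In the 5 cells with 20 or more Fabp7 molecules, the second site took 0% to 6.06% of them.

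Dbi binds acyl-CoA esters and is also the precursor of peptides that act on GABA receptors. It had 259 molecules in NSC (17.1 per 10000, 15.0 to 19.3), 132 in ESC-2i (3.58, 3.00 to 4.25) and 48 in ESC-FCS (2.12, 1.56 to 2.81). NSC cells held 0 to 22 molecules (median 6), ESC-2i cells 1 to 11 (median 4) and ESC-FCS cells 0 to 5 (median 1). It was thus a gene of all 3 populations, detected in 40 of 41 NSC, 33 of 33 ESC-2i and 22 of 33 ESC-FCS cells, with its highest level in NSC. The NSC level was 4.76-fold that of ESC-2i (3.84 to 5.91) and 8.05-fold that of ESC-FCS (5.90 to 11.2). On the ERCC scale these were 3.87-fold and 3.17-fold, below the 4-fold limit. The site at 120113291 on chromosome 1 (minus strand), in the 3′ UTR and 11 nt before the gene end, took 98.5% of NSC, 97.0% of ESC-2i and 97.9% of ESC-FCS molecules. The related Dbil5 was counted apart, with 0 molecules in NSC, 6 in ESC-2i and 0 in ESC-FCS.

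Fabp5, the epidermal member of the fatty acid binding family, had 1 molecule in NSC, 1 in ESC-2i and 0 of 226683 in ESC-FCS, where 3 molecules would be a level of 0.132 per 10000. Its near-identical copy Fabp5l2 had 3 molecules in NSC, 0 in ESC-2i and 1 in ESC-FCS, so reads shared by the pair and removed as multiply aligned are a limit on these counts. Of the other members of the family, Fabp3, the heart form, had 0 molecules in NSC against 355 in ESC-2i (9.64 per 10000) and 226 in ESC-FCS (9.97). Of the 5 genes of this list in the table, 1 had enough molecules and was at least 4-fold lower in NSC. Fabp7 and Fabp3 were thus detected mainly in different populations. Of the acyl-CoA binding family, 1 of 5 genes had enough molecules, Acbd6, at 1.84 per 10000 in NSC, 1.22 in ESC-2i and 0.926 in ESC-FCS.

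Ptn and its receptor Ptprz1 were both detected in NSC, with few or no molecules in single embryonic cells. Pleiotrophin binds the chondroitin sulphate chains of Ptprz1 and blocks its phosphatase. Ptn had 118 molecules in NSC (7.77 per 10000, 6.43 to 9.30), in 32 of 41 cells, with 0 to 15 per cell (median 2). It had 0 of 368362 molecules in ESC-2i and 2 in ESC-FCS. The NSC level was at least 95.4-fold that of ESC-2i, taking 3 molecules as the floor over the population, 14.0-fold that of the ESC-2i pools (10.1 to 19.7), and 88.1-fold that of ESC-FCS (23.8 to 736). The NSC batches agreed, at 7.90 and 7.63.

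Ptprz1 had 61 molecules in NSC (4.02 per 10000, 3.07 to 5.16), in 25 of 41 cells, with 0 to 5 per cell (median 1). There was 1 molecule in ESC-2i and 3 in ESC-FCS, which makes the NSC level 148-fold (25.6 to 5938) and 30.3-fold (9.91 to 151) theirs. Over the 41 NSC cells the Spearman correlation of Ptn and Ptprz1 was -0.05 (0.0737 and -0.15 in the batches), as a description of sparse counts. Ptprz1 was counted over all its sites, with the end of a shorter transcript described below among them. Of the 14 other ligands, receptors and partners of this pathway, 4 had enough molecules and 1 was at least 4-fold lower in NSC. That gene was Mdk (midkine, the other member of the pleiotrophin family), with 1 molecule in NSC, 58 in ESC-2i (1.57 per 10000) and 73 in ESC-FCS (3.22). Itgb1, an integrin subunit, was at 3.49 per 10000 in NSC, 0.353 in ESC-2i and 0.971 in ESC-FCS. Ncl (nucleolin) was at 7.18, 6.81 and 8.16, and Itgav (integrin alpha V) at 1.78, 1.11 and 0.397. In this family Ptn was thus detected mainly in NSC and Mdk mainly in embryonic cells.

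Molecules of Ptprz1 were spread over 22 sites, 14 of them with 1 molecule each. The most used, at 23004673 on chromosome 6 (plus strand), took 19 of 61 NSC molecules (31.1%, 19.9% to 44.3%) in 14 cells. It is an intron site in the authors' classes, but lies 5 nt from the end of a shorter annotated transcript of the gene, in its 3′ UTR. The site at the end of the full-length gene, 23052909, took 15 (24.6%, 14.5% to 37.3%) in 12 cells. The intervals of both shares overlap, and the order differed between the batches (12 and 6 molecules in batch 1, 7 and 9 in batch 2). Coding exons of the full-length gene lie past the shorter end, so the shorter transcript lacks them. Whether molecules with this end encode the receptor was not tested. These sites are shown as the ends of the shorter transcript and of the full-length gene, and both windows hold the same hexamer:
Ptprz1 shorter transcript, chr6:23004644-23004673, plus strand: tgattgagaacAATAAAatatattttatgc
Ptprz1 full length, chr6:23052880-23052909, plus strand: gagaagttgcaaaAATAAAtataaatattg
All sites in the 3′ UTR of a shorter transcript took 37.7% of NSC molecules (25.6% to 51.0%), those in the 3′ UTR of the full-length gene 32.8%, coding exons 19.7% and introns 9.84%.

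For Ptn, 97 of 118 NSC molecules (82.2%, 74.1% to 88.6%) ended at 36714936 on chromosome 6 (minus strand). The authors' annotation classes this site as downstream of the gene, while in GENCODE M21 it is 7 nt before the gene end, in the 3′ UTR. A further 6 ended 239 nt before the gene end (at 36715168) and 8 at 36715757, in the coding part of the last exon. The hexamer precedes the first pair:
Ptn most used site, chr6:36714936-36714965, minus strand: aaaatctaggaaAATAAAacaagtgatgct
Ptn upstream site, chr6:36715168-36715197, minus strand: agcagcAATAAAatataaatcattctattg

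Slc1a3 moves glutamate into astrocytes and radial glia. It had 37 molecules in NSC (2.44 per 10000, 1.72 to 3.36), in 20 of 41 cells, with 0 to 4 per cell and a median of 0. ESC-2i held 3 molecules and ESC-FCS 9, and the NSC level was 29.9-fold (9.47 to 152) and 6.14-fold (2.91 to 14.5) theirs. All 9 molecules of the main ESC-FCS cells ended at 1 site, 8645141 on chromosome 15 (minus strand), inside an intron 11017 nt before the gene end, in 7 cells of batch 1 and 0 of batch 2. No NSC molecule of 37 ended there (exact upper bound 9.49%), nor any molecule in the control cells or pools, and 2 of the 3 molecules in the ESC-FCS control cells ended within 5 nt of the main NSC site, described next. In NSC, 19 molecules (51.4%, 34.4% to 68.1%) in 16 cells ended at 8634128, 4 nt before the gene end, and 5 at 8634749, 625 nt before it. Another 4 NSC molecules, all in batch 1, ended at 8680893, in an exon of a noncoding transcript or a 5′ exon, which were not told apart. In batch 1 alone the NSC level was 3.45-fold that of ESC-FCS, below the 4-fold limit. With 3′ UTR sites alone, an alternative chosen after seeing the data, ESC-FCS had 0 molecules and the NSC level was at least 13.9-fold theirs. The window of the main NSC site is shown, as the transporter's full-length end:
Slc1a3 most used site in NSC, chr15:8634128-8634157, minus strand: tattttcAATAAAgaaaaaatagttttaca

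Of the 6 other transporters of the Slc1 family, 3 were in the table and 2 had enough molecules. Slc1a4, a neutral amino acid transporter, had 30 molecules in NSC (1.98 per 10000), 6 in ESC-2i (0.163) and 9 in ESC-FCS (0.397), and passed the 4-fold limit. Slc1a5, a glutamine transporter, had 3, 27 and 8.

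Sparc, which binds collagen and calcium, was at its highest in NSC and at its lowest in ESC-FCS, with ESC-2i between them. It had 64 molecules in NSC (4.21 per 10000, 3.25 to 5.38), 93 in ESC-2i (2.52, 2.04 to 3.09) and 12 in ESC-FCS (0.529, 0.274 to 0.925). NSC cells held 0 to 7 molecules (median 1), ESC-2i cells 0 to 7 (median 2) and ESC-FCS cells 0 to 3 (median 0). The ranges of single cells overlapped. The NSC level was 1.67-fold that of ESC-2i (1.19 to 2.32) and 7.96-fold that of ESC-FCS (4.26 to 16.2), and ESC-2i was 4.77-fold above ESC-FCS (2.60 to 9.56). On the ERCC scale the NSC level was 1.36-fold that of ESC-2i and 3.14-fold that of ESC-FCS, with no interval computed. More ESC-2i cells held a molecule (28 of 33) than NSC cells (27 of 41), but at 1000 molecules per cell the expected shares were 22.5% and 33.3%. Its site at 55394501 on chromosome 11, 1 nt before the gene end, took 93.8% of NSC, 95.7% of ESC-2i and 91.7% of ESC-FCS molecules. In the SPARC family 2 of the 6 genes in the table had enough molecules and 0 passed the 4-fold limit. Smoc1 was at 1.05 per 10000 in NSC, 0.353 in ESC-2i and 0.221 in ESC-FCS, and Fstl1 at 0.329, 0.570 and 0.397.

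Lgals1, which binds galactosides on cell surface and matrix glycoproteins, had 180 molecules in NSC (11.9 per 10000, 10.2 to 13.7), 69 in ESC-2i (1.87, 1.46 to 2.37) and 68 in ESC-FCS (3.00, 2.33 to 3.80). NSC cells held 0 to 18 (median 3), ESC-2i cells 0 to 8 (median 1) and ESC-FCS cells 0 to 10 (median 1). The NSC level was 6.33-fold that of ESC-2i (4.77 to 8.48) and 3.95-fold that of ESC-FCS (2.97 to 5.30), just under the 4-fold limit. Against the ESC-FCS control cells it was 6.29-fold (4.48 to 9.03). The NSC batches stood at 13.7 and 9.85, with overlapping intervals. On the ERCC scale the difference from ESC-FCS was 1.56-fold. Pseudogenes of Lgals1 are annotated, and the 2 named ones had 0 molecules.

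The 3′ end of Lgals1 was not at the annotated gene end. In NSC 178 of 180 molecules (98.9%, 96.0% to 99.9%) ended at 78930191 on chromosome 15 (plus strand), 274 nt upstream of it, in the 3′ UTR. The gene end itself, 78930465, took 2 in NSC, 1 in ESC-2i and 3 in ESC-FCS. The same short end served 98.6% of ESC-2i and 95.6% of ESC-FCS molecules, and it coincides with the end of another annotated transcript. Both ends are shown, since each is preceded by the same hexamer:
Lgals1 used end, chr15:78930162-78930191, plus strand: ccctcAATAAAggcagctgcctctgctccc
Lgals1 annotated gene end, chr15:78930436-78930465, plus strand: catttgtcttAATAAAagccagaaaccact
Of the other galectins, 2 had enough molecules: Lgals3, with 1 molecule in NSC against 22 in ESC-2i and 26 in ESC-FCS, was at least 4-fold lower in NSC, and Lgals8 had 25, 33 and 27.

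Cd9 and Clu, like Fabp5, were not higher in both NSC batches than in every embryonic batch. Cd9, a tetraspanin long used as a surface marker of embryonic stem cells, had 9 molecules in NSC (0.593 per 10000, 0.271 to 1.12), 62 in ESC-2i (1.68, 1.29 to 2.16) and 21 in ESC-FCS (0.926, 0.573 to 1.42). The ESC-2i level was 2.84-fold that of NSC (1.40 to 6.50), and for ESC-FCS the ratio was 1.56 with an interval that includes 1 (0.686 to 3.88). On the ERCC scale the NSC level was 0.287 of that of ESC-2i and 0.252 of that of ESC-FCS, with no interval computed. The size of the difference from ESC-FCS thus depends on the scale. Of the 9 NSC molecules 8 were in batch 2 and 1 in batch 1. Clu had 0 of 151877 molecules in NSC, where 3 would be a level of 0.198, with 5 in ESC-2i and 2 in ESC-FCS, so that a difference was not detectable at this depth. Other tetraspanins and their partners were mostly present. Of 9 with enough molecules, 3 were at least 4-fold higher in NSC (Tspan5, Tspan6 and the tetraspanin partner Igsf8). For the 4 with the most molecules, Cd81 was at 2.50 per 10000 in NSC, 3.01 in ESC-2i and 1.76 in ESC-FCS, Cd63 at 1.91, 1.71 and 0.971, Tspan3 at 3.29, 0.869 and 1.15, and Tspan5 at 3.09, 0.353 and 0.309.

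Other markers of neural stem cells and radial glia were mixed. Of 17 in the table, 6 had enough molecules, 3 were at least 4-fold higher in NSC (Nes, Vim and Tnc) and 0 lower. Vim, an intermediate filament protein, was at 8.56 per 10000 in NSC, 1.60 in ESC-2i and 0.794 in ESC-FCS. Sox2, a transcription factor of both stem cell types, was at 1.12, 1.63 and 2.29, Glul (glutamine synthetase) was at 2.50, 1.03 and 2.74, and Id3 at 2.44, 0.516 and 2.07. Among astrocyte genes, 4 had enough molecules, of which 2 were at least 4-fold higher, Aldoc (15.5, 0.652 and 0.485) and Acsbg1 (2.37, 0.0814 and 0.0441). The other pair was Apoe, at least 4-fold lower (0.198, 10.3 and 12.5), and Gja1 (0.593, 0 and 2.34). Both genes tested of the oligodendrocyte progenitor list, Olig1 and Olig2, were higher. Of 3 neuronal genes tested, Map2 was higher, with 59 molecules in NSC against 0 and 6, and Stmn2 lower, with 0 against 93 and 100. The pluripotency list had 8 of 11 genes lower, and the list of G2 and mitosis 2 of 11, with summed levels of 4.41 per 10000 in NSC, 10.2 in ESC-2i and 17.8 in ESC-FCS.

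The ESC-FCS control cells and pools, libraries made apart, gave a second measurement of the embryonic cells. In a pool, fewer cells with a transcript and less of it per cell cannot be told apart. Fabp7 and Ptprz1 had 0 molecules in the control cells and in the ESC-FCS pool. Sparc was at 0.762 per 10000 in the control cells and 0.726 in the ESC-FCS pool, near the 0.529 of ESC-FCS cells, and at 2.76 in the ESC-2i pools against 2.52 in ESC-2i cells, so that the order of the embryonic populations was seen again. Cd9 was different. It stood at 3.99 per 10000 in the control cells (3.20 to 4.91) and at 5.02 in the ESC-FCS pool (4.04 to 6.17), against 0.926 in the main ESC-FCS cells (0.573 to 1.42), and these intervals do not overlap. The control batches stood at 4.76 and 2.82 and the ESC-FCS batches at 0.461 and 1.56. Against the control cells the NSC level of Cd9 was 6.73-fold lower (3.39 to 15.2).

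The ESC-2i pools stood apart for 3 of the genes. Ptn had 26 and 28 molecules in the 2 pools, 0.554 per 10000 together (0.416 to 0.723), against 0 in ESC-2i cells, where 3 molecules would be 0.0814. Of these, 22 and 28 molecules ended within 5 nt of the main NSC site. Fabp7 had 6 molecules in the first pool and 0 in the second. The pools share their batch barcodes with the NSC batches, while Olig1 and Olig2, both detected in NSC, had 0 molecules in either pool, where 3 molecules would be 0.0626 and 0.0606 per 10000. The part of shared barcodes in these counts was not tested. Dbi had 19 and 1 molecules (0.396 and 0.0202 per 10000) and Lgals1 11 and 2 (0.229 and 0.0404), far below the 3.58 and 1.87 of ESC-2i cells. The ESC-FCS pool had Dbi at 1.73 and Lgals1 at 2.46, like ESC-FCS cells.

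**Figure D2:**
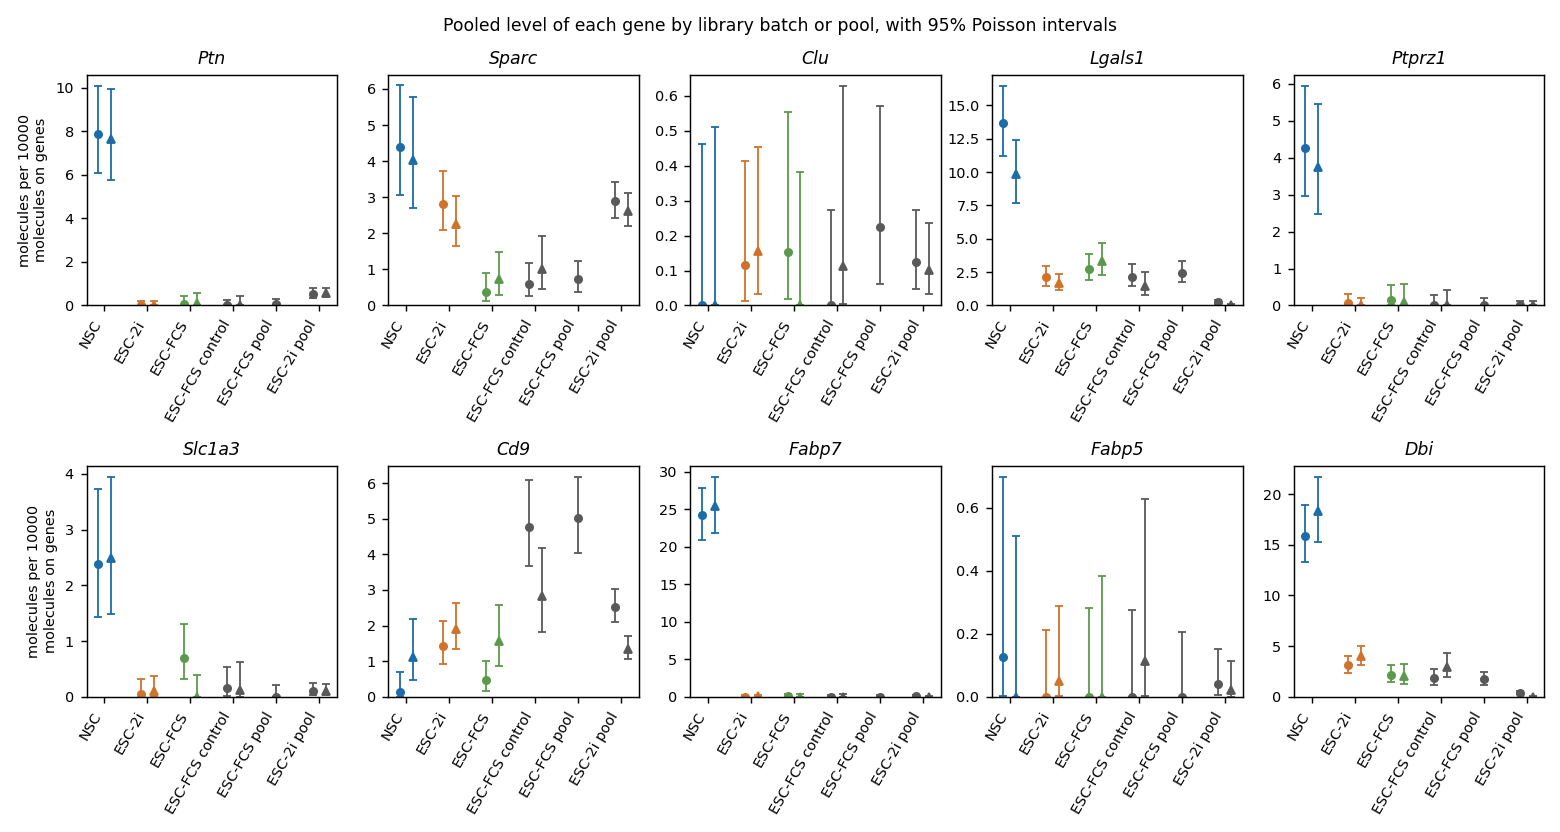
Pooled level of each of the 10 genes, in molecules per 10000 molecules on genes (vertical axis, a scale of its own per gene), by library batch of single cells or by pool (circles for the first, triangles for the second), with 95% Poisson intervals. NSC batches lie above the embryonic ones for 7 genes, Cd9 is highest in the ESC-FCS control cells and pool, and Dbi and Lgals1 are lowest in the ESC-2i pools.

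Variation between NSC cells was tested against the technical noise of ERCC spike-ins by the method of Brennecke and colleagues, which asks whether the squared coefficient of variation (CV2) exceeds technical noise plus a biological CV2 of 0.25. Of the 10 genes, 7 had a normalized mean above 0.5 and were tested, and 3 were called at an adjusted p below 0.1 (Benjamini-Hochberg over all 1157 genes tested), while 10.7% of all genes tested were called. For Fabp7 the CV2 was 1.43, where ERCC noise at its mean gave 0.148 (adjusted p = 2.38e-11 by the Brennecke test) and was 10th of the 1157 genes by p. For Ptn these were 1.34 and 0.411 (adjusted p = 0.00367) and for Sparc 1.51 and 0.685 (adjusted p = 0.0800). Ptprz1 (adjusted p = 0.183) and Lgals1 (0.813) did not pass. Dbi, at a normalized mean of 5.26 where Fabp7 had 8.31, gave 0.364 and 0.217 (adjusted p = 1), and Slc1a3 gave 1.49 and 1.32 (adjusted p = 1). Of the abundant lipid carriers, Fabp7 was thus called and Dbi was not, although Dbi passed with no margin over ERCC noise (adjusted p = 0.0244).

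As raw counts, Fabp7 molecules were concentrated in a few cells. The 5 NSC cells with the most Fabp7 held 44.1% of its molecules, and 3 of these cells were in batch 1. Their depths were 4132 to 9037 molecules on genes, where the NSC median was 3282. Raw Fabp7 counts had a Spearman correlation of 0.496 with depth, and the part of depth in this concentration was not tested. The highest cell, in batch 2, held 50 of 376 molecules at a depth of 4132. Without that cell the CV2 of Fabp7 was 0.733 and its adjusted p 0.0400, and Ptn (0.0228) and Sparc (0.0694) were called as well. In batch 2 alone Fabp7 was called (adjusted p = 4.47e-08), and in batch 1 alone it was not (CV2 0.620, adjusted p = 0.384). Ptn had an adjusted p of 0.0859 in batch 1 alone and 0.304 in batch 2 alone, and Sparc was called in neither (0.749 and 0.311). With size factors from total molecules Fabp7 passed (adjusted p = 0.00829), and Ptn (0.582) and Sparc (0.932) did not. In embryonic cells 0 of 4 genes were called in ESC-2i (0.608% of all genes, 22 of 3616, with 93 at an unadjusted p below 0.05) and 0 of 2 in ESC-FCS (3.36%, 68 of 2026, with 159), by the same test. Whether variation differs between populations was not tested.

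**Figure D3:**
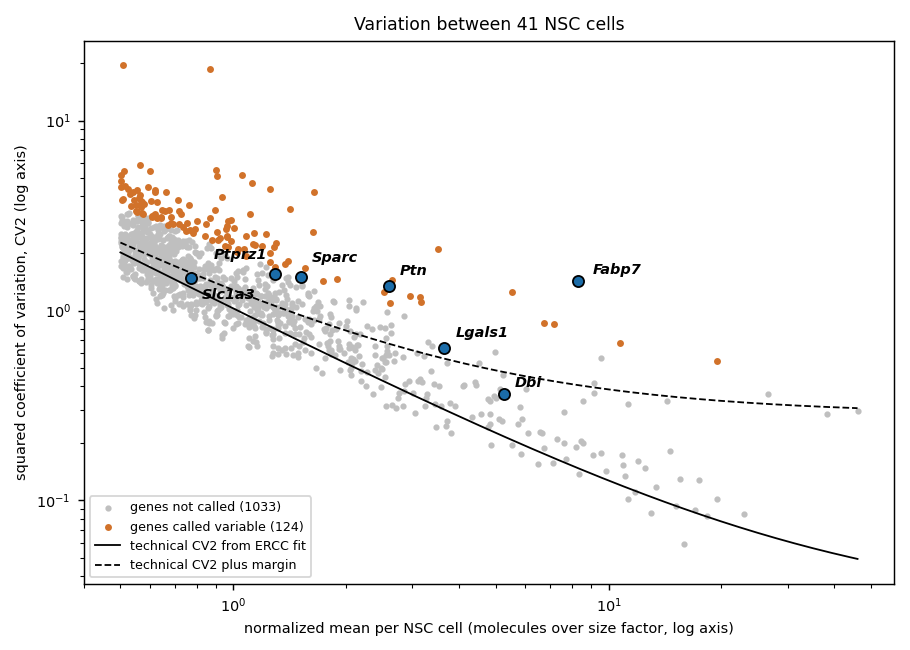
CV2 against the normalized mean for 1157 genes over 41 NSC cells (both axes logarithmic). Grey points are genes not called, orange points the 124 called, the solid line is the technical CV2 fitted to ERCC transcripts and the broken line adds the margin of 0.25. Blue points are the 7 genes tested: Fabp7 at a CV2 of 1.43 lies far above the lines at its mean, and Dbi at 0.364 is near them.

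Over the same 41 cells, the levels of the 7 genes were compared pair by pair. The median Spearman correlation over their 21 pairs was 0.215, against 0.0283 over all 668746 pairs of the 1157 genes, whose 95th percentile was 0.304. The points share libraries and depth, and no p is given. The pairs of all genes were not matched for abundance. Of the 1157 genes, 471 had a normalized mean of at least 1, as had the 7 genes other than Slc1a3 (0.771). The part of abundance in this difference was not tested. Of the 21 pairs 18 were above 0, against 56.7% of all pairs, and 4 were above that percentile. The highest was Sparc with Fabp7 at 0.484 (0.330 and 0.569 in the batches), followed by Ptprz1 with Slc1a3 at 0.437, Sparc with Slc1a3 at 0.337 and Slc1a3 with Fabp7 at 0.312. Each of these 4 was above 0 in both batches, which is not a separate check, as they were picked as the highest over the same cells. The lowest was Lgals1 with Ptprz1 at -0.21. The normalized level of Fabp7 had a correlation of 0.0671 with the depth of the cell and of -0.03 with its ERCC molecules.

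Of the 471 genes with a normalized mean of at least 1, those most like Fabp7 over NSC cells were Gpm6b at 0.609, Aldoc at 0.595, Marcks at 0.574, Hmgcs1 at 0.559 and Sptan1 at 0.540. Gpm6b is a membrane proteolipid, Aldoc a glycolytic aldolase, Marcks an actin-binding kinase substrate, Hmgcs1 an enzyme of cholesterol synthesis and Sptan1 a spectrin. Each of the 5 was above 0.39 in both batches, from 0.397 for Marcks in batch 1 to 0.826 for Gpm6b in batch 2. Because the 5 were picked as the highest over these same cells, the batch values are not a separate check. Summed lists were related to Fabp7 at 0.614 for astrocyte genes, of which Aldoc gave 235 of 301 molecules, at 0.473 for the other radial glia genes, at 0.412 for oligodendrocyte progenitor genes and at 0.167 for neuronal genes. The lists for pluripotency (4 molecules) and mitosis gave 0.0700 and -0.08. The part of these lists in the variation of Fabp7 was not tested.

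**Figure D4:**
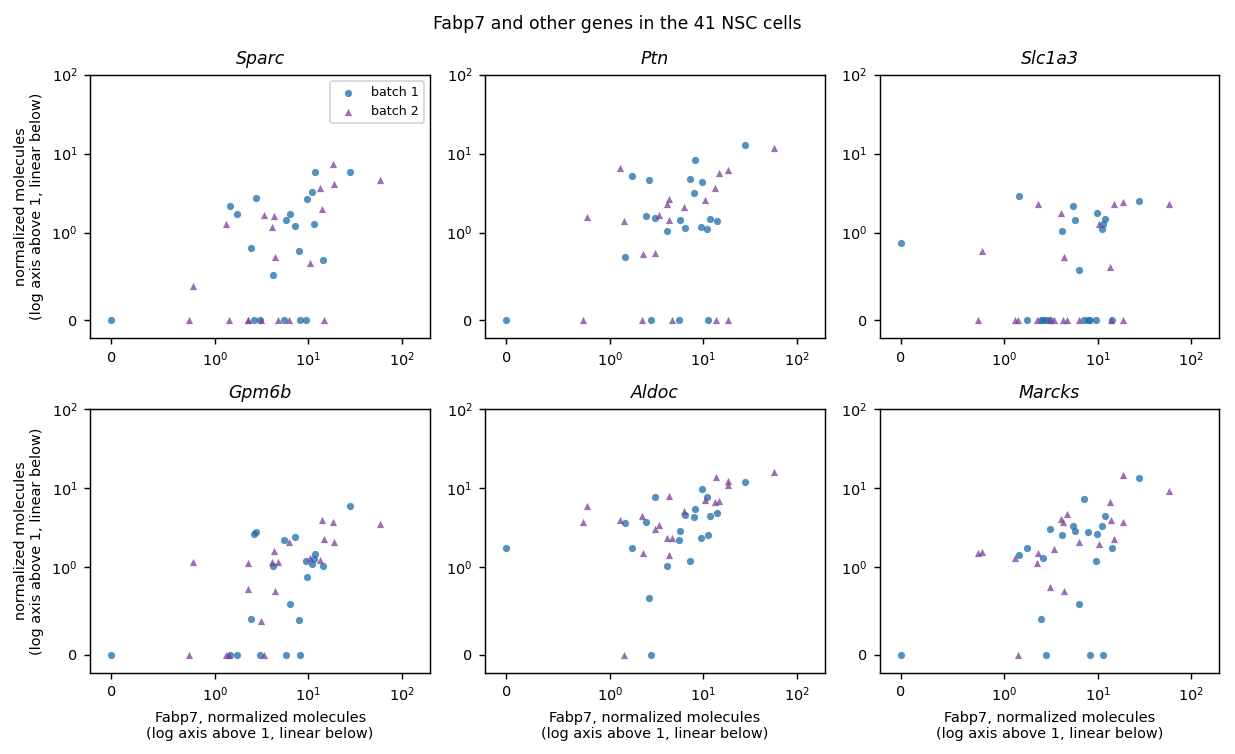
Normalized molecules of Fabp7 (horizontal axis) against 6 other genes (vertical axis) in the 41 NSC cells, with circles for batch 1 and triangles for batch 2. Both axes are logarithmic above 1 and linear below. Aldoc (Spearman 0.595) and Gpm6b (0.609) follow Fabp7 more closely than Ptn (0.278), and the cell with the most Fabp7 is a triangle.

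The ends of the genes were looked at together. Over the 3 populations, the 10 genes had 18 sites with at least 5 molecules. Of these, 16 had 30 bases of annotated exon before them, and AATAAA was the hexamer found in 11 windows, ATTAAA in 2 (the main Dbi site and the Slc1a3 site at 8680893), and neither in 3. Of 12184 sites of all genes searched in the same way on the transcribed strand, 59.0% held AATAAA, 17.0% ATTAAA and 74.1% at least 1 of them. The 3 without either were the second sites of Fabp7 and Dbi and the Slc1a3 site at 8634749. The minor Dbi end lies 23 nt upstream of the main one. The main ends of Dbi, Cd9 and Sparc are shown as those used alike in all 3 populations:
Dbi most used site, chr1:120113291-120113320, minus strand: acaatcaATTAAAagtacatttgttactct
Cd9 most used site, chr6:125460267-125460296, minus strand: atttgatacatAATAAAagattataacagt
Sparc most used site, chr11:55394501-55394530, minus strand: tcaaAATAAAaagtaacaacttagaaacgg
The Cd9 site took 9 of 9 NSC, 60 of 62 ESC-2i and 19 of 21 ESC-FCS molecules. For the genes with many molecules in more than 1 population (Dbi, Lgals1, Sparc and Cd9), the same site was thus the most used in each.

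**Figure D5:**
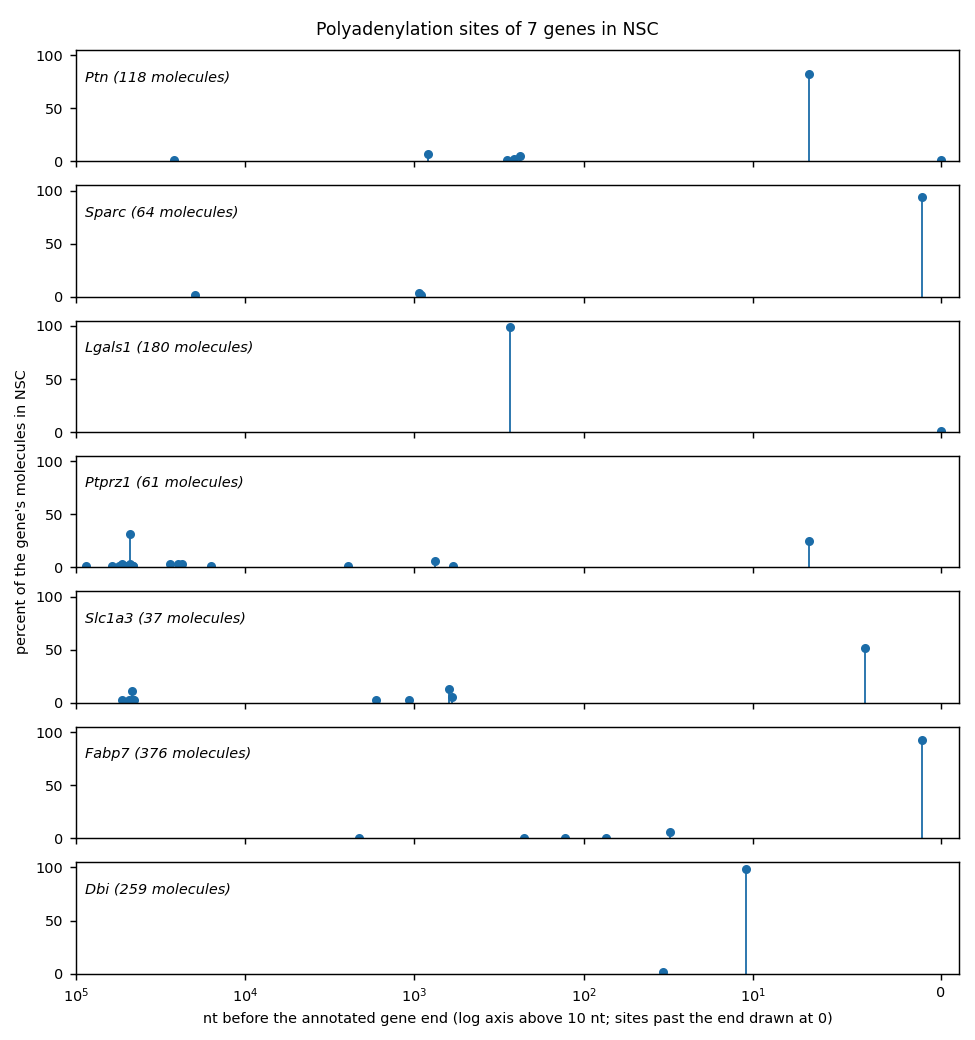
Percent of each gene's molecules in NSC (vertical axis) by the distance of the site before the annotated gene end in nt (horizontal axis, logarithmic above 10 nt, with sites past the end drawn at 0), for the 7 genes with at least 37 NSC molecules. A single end takes 92.8% of Fabp7, 98.5% of Dbi and 98.9% of Lgals1 molecules, the last at 274 nt before the gene end, while those of Ptprz1 are divided between ends 48243 and 7 nt before it.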

How the data were processed

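BATSeq libraries of single cells and pools were analysed from the tables deposited by the authors. As deposited, the values are raw counts of unique molecular identifiers (molecules) and of reads per polyadenylation site and library. The authors aligned reads to GRCm38 (Ensembl) with GSNAP, removed reads that aligned to several places or came from A-rich regions, merged identifiers that differed at 1 base and merged sites within 12 nt. The submitters' processing notes name HTSeq and R 3.0.2.

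The table of genes (107 cells) sums each gene's sites and leaves out the antisense ones; for the 10 genes, 0 entries differed from that sum. In the site tables the last header names are exchanged, and columns were read by content. Ensembl identifiers were matched to symbols (10 of 10).

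The cells of the table of genes, all with at least 1000 molecules on genes, entered; 2 further cells above that limit are not in it and entered an alternative only. Control cells entered from 1000 molecules. Levels are pooled molecules per 10000, with exact Poisson, Clopper-Pearson and conditional binomial intervals at 95%. A count of 0 was set to 3 molecules for a fold. The 4-fold limit was applied to genes with at least 20 molecules. For the method of Brennecke and colleagues, whose margin the study does not state, 0.25 was used; it was written in Python and tested on simulated data. Alternatives varied the scale, cells, batches, fold, margin, size factors and site window. All 10 genes are named. From each other list, the named genes are up to 4 with the most molecules and at least 10; Nes, Sox9, Pax6, Tnc, Tspan6 and Igsf8 were named after their values were seen. One gene that this rule names is not reported here. Genes most like Fabp7 are the 5 with the highest Spearman correlation. The genes and lists were chosen with earlier results of these data known. Site windows were read from GENCODE M21 transcripts. Software was Python 3.11.15, numpy 2.4.6, scipy 1.17.1, pandas 2.3.3 and matplotlib 3.10.9.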

Additional observations from a re-analysis of the deposited data

How the results depend on the processing

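No paired analysis was possible because the numbers that cells share across populations only name wells, and no test between populations was made. Of the 5 genes at least 4-fold higher in NSC, 3 passed per ERCC spike-in molecule and 3 at a limit of 8-fold, and the count was 5 or 6 under the other 9 alternatives; in batch 1 alone Lgals1 passed and Slc1a3 did not. The number of genes called variable between NSC cells, 3 as reported, was 6 at a biological CV2 of 0, 1 at a CV2 of 0.5, 1 with size factors from total molecules, 1 in batch 1 alone and 1 in batch 2 alone, with 2 to 4 under the other 4 alternatives; the cause was not tested. Over the whole table the first count of 238 genes became 104, 101 at 8-fold and 771 at 2-fold, and the 124 variable genes became 342, 51, 51, 84 and 33 in the order above, 27 in cells with at least 2000 molecules, 80 with all spike-in species and 1114 with no limit on the mean. With the pools in place of ESC-2i cells, the lower of the Ptn ratios of NSC fell from 88.1 to 14.0. The Ptn level in the ESC-2i pools was 0.566 without the first pool and 0.542 without the second. The summed level in NSC was 68.8 without the cell with the most molecules, and the median correlation of pairs, 0.215 as reported, ran from 0.109 to 0.257. The Fabp7 share at its main site was 92.8% to 93.7%. Merging sites within 25 nt could not change it, since the nearest other site lies 30 nt away. Use of sites in the 3′ UTR alone, the 40-base window (76.5% of sites with a hexamer) and the pools taken 1 at a time were chosen after seeing the data. Depth limits Clu, Fabp5 and Cd9, and ratios that rest on 1 to 3 embryonic molecules.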
